A study of Mus musculus with 12 samples.

Results

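Prostaglandin synthesis and the EP receptors were examined in mpkCCDc11 cells, an immortalised mouse line from the cortical collecting duct of the kidney, through 9 genes listed by symbol. These were the cyclooxygenases Ptgs1 and Ptgs2, the prostaglandin E synthases Ptges, Ptges2 and Ptges3, the prostaglandin D synthase Ptgds, the prostaglandin E2 (EP) receptors Ptger1 and Ptger4, and Hpgd, which inactivates prostaglandins. Of the 9 genes, 8 had a row among the 25208 genes of the table, and 7 had enough reads to be among the 16508 genes tested. Hpgd had no row in the table used here, so it was not analysed, and Ptges was too low to measure. Every cell received 50 nM of an siRNA, either a control siRNA or one against Ctnnb1, the gene of beta-catenin. Cells grew on permeable supports for 4 days and then spent 24 h in medium free of serum and hormones. They were treated for 24 h with vehicle or with 1 nM dDAVP, a selective agonist of the vasopressin V2 receptor. Ribosome-depleted total RNA was sequenced in 3 libraries for each of the 4 groups: control siRNA with vehicle, control siRNA with dDAVP, Ctnnb1 siRNA with vehicle and Ctnnb1 siRNA with dDAVP.

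Prostaglandins are made from arachidonic acid, which phospholipases A2 free from membrane lipids. A cyclooxygenase turns it into prostaglandin H2, and terminal synthases then make prostaglandin E2, D2 and the other prostanoids. In the collecting duct, vasopressin acts through the V2 receptor and cyclic AMP to raise water permeability by way of the water channel Aqp2, and prostaglandin E2 is known to oppose this action, while EP4 (Ptger4) itself couples to cyclic AMP.

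In these cells dDAVP moved 2 of the 7 tested genes with either siRNA, where edgeR called 2.83% of all tested genes with control siRNA and 2.78% with Ctnnb1 siRNA. Ptgs2, the inducible cyclooxygenase, rose 2.10-fold with control siRNA and 1.63-fold with Ctnnb1 siRNA. Ptgds, the lipocalin-type prostaglandin D synthase, fell 1.79-fold and 1.58-fold, the second of these calls being lost in 10 of the 19 alternative analyses. Ptgs1, Ptges2, Ptges3, Ptger1 and Ptger4 passed no edgeR test of dDAVP. With edgeR no gene of the 7 passed the test of the Ctnnb1 siRNA within either treatment. DESeq2, which made more calls over all genes, called Ptgs2 with vehicle (97 genes called higher and 80 lower) and Ptgs1 with dDAVP (132 higher and 105 lower).

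The libraries held 32997720 to 48935473 counted reads. Ctnnb1 fell in all 6 libraries of its siRNA, from 744 to 811 CPM (read counts divided by a library size that edgeR's TMM method adjusts) down to 306 to 342 CPM. The V2 response was present with both siRNAs: Aqp2 had 0 to 6 reads in each vehicle library and 155 to 302 in each dDAVP library. Whether replicates came from separate cultures is not stated in the labels, so p-values reflect the spread among the sequenced samples alone, and that spread may be technical. In such bulk samples, fewer cells expressing a gene and less RNA of it per cell cannot be told apart. Ctnnb1-siRNA dDAVP replicate 3 stood apart: a chi-square test of its counts against each mate gave 39.8 and 64.4 per degree of freedom, where the other pairs within groups gave 5.13 to 23.7. Mitochondrial ribosomal RNA took 1.52% of its reads, against 0.464% to 1.27% in the other 11 libraries. Epithelial markers (6 of 6 with a row, among them Cdh1, Epcam and Krt8) summed to 3843 to 4023 TPM with vehicle and 4192 to 4420 TPM with dDAVP (TPM being a level per transcript length, scaled to a fixed sum per library). All 12 principal-cell markers, Aqp2 among them, had a row and summed to 127.9 to 150.5 TPM with vehicle and 138.32 to 199.19 TPM with dDAVP. Only 10 of the 12 had enough reads to be tested, and Elf5 had 0 reads in the Ctnnb1-siRNA dDAVP libraries. Fibroblast markers (3 of 7 with a row) summed to 0.54 to 0.97 TPM and endothelial markers (3 of 5) to at most 0.33 TPM. Leukocyte markers (4 of 8, with 2 tested) summed to 16.04 to 18.98 TPM with control siRNA and 15.76 to 20.95 TPM with Ctnnb1 siRNA. Among them, Itgam had 0 reads in every group except control siRNA with vehicle. The part of these markers in the results below was not tested.

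The start regions of the genes that moved, and of the constitutive cyclooxygenase as the paralog that did not pass the test, are shown because 1 of the 3, that of Ptgs2, held matches to the short motifs searched and the others held none. Each run covers 250 bases before and 30 bases from the annotated start, 5′ to 3′ on the gene's own strand, from RefSeq on GRCm38.p6, and uses 1 of the starts annotated for the gene. Of the 9 listed genes, 8 matched an entry, all except Ptger1. The windows are chr1:150099781-150100060 on the plus strand for Ptgs2, chr2:36230176-36230455 on the plus strand for Ptgs1 and chr2:25469720-25469999 on the minus strand for Ptgds. Capitals mark CGTCA and the overlapping CACGTG.
Ptgs2: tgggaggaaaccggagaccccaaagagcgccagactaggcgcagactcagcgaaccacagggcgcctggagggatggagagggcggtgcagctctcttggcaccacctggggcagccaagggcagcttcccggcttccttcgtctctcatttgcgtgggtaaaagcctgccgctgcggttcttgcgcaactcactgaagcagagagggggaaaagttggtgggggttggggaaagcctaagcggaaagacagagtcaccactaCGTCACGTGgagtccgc
Ptgs1: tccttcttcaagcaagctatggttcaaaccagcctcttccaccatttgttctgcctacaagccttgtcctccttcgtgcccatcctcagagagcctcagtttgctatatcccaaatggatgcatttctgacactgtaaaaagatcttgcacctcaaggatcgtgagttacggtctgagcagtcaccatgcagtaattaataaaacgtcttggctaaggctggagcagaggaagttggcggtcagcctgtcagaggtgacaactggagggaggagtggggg
Ptgds: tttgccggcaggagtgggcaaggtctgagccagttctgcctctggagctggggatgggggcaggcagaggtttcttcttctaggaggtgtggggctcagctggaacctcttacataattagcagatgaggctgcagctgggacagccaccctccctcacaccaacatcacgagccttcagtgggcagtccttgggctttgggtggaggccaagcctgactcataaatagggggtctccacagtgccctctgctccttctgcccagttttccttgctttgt

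Letters CGTCA, the core of the element that cyclic AMP-responsive factors bind, were searched on both strands (as TGACG on the other). The Ptgs2 window held 1 match, at bases 14 to 18 counted from 1 at the annotated start, and 2 of its bases also belong to the E-box CACGTG at bases 17 to 22. The Ptgs1 and Ptgds windows held neither. CGTCA or TGACG was in 19.9% of the 32851 RefSeq windows of 280 bases and CACGTG in 6.79%. The full element TGACGTCA, present in 1.74% of windows, and TATAA or its reverse complement TTATA, present in 24.0%, had no match in any of the 3. These matches describe letters in these windows only, and binding was not measured.

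On the TPM scale, which allows levels of different genes to be compared, the order by the mean of 12 libraries was Ptges3, Ptgs1, Ptges2, Ptgs2, Ptgds, Ptger1, Ptger4 and Ptges. Ptges3, which encodes the cytosolic synthase that is also the HSP90 co-chaperone p23, led with a mean of 410 TPM (331.63 to 451.54 over the libraries). Ptgs1 followed with 68.8 TPM (51.50 to 80.56), Ptges2 with 41.5 TPM (36.72 to 48.15) and Ptgs2 with 12.6 TPM (7.54 to 20.91). The first 4 genes did not overlap in their ranges over libraries. Ptgds had a mean of 6.55 TPM (3.94 to 10.68), Ptger1 of 4.79 TPM (4.16 to 5.54) and Ptger4 of 4.34 TPM (3.76 to 5.10). Ranges of Ptgs2 and Ptgds, of Ptgds and Ptger1, and of Ptger1 and Ptger4 overlapped, so those neighbours were not separated beyond the spread of the libraries. Between Ptgs2 and Ptgds the order depended on the group: with vehicle and control siRNA the mean level of Ptgs2 was 7.87 TPM and that of Ptgds 8.61 TPM, while with dDAVP Ptgs2 lay above Ptgds in every library.

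**Figure D1:**
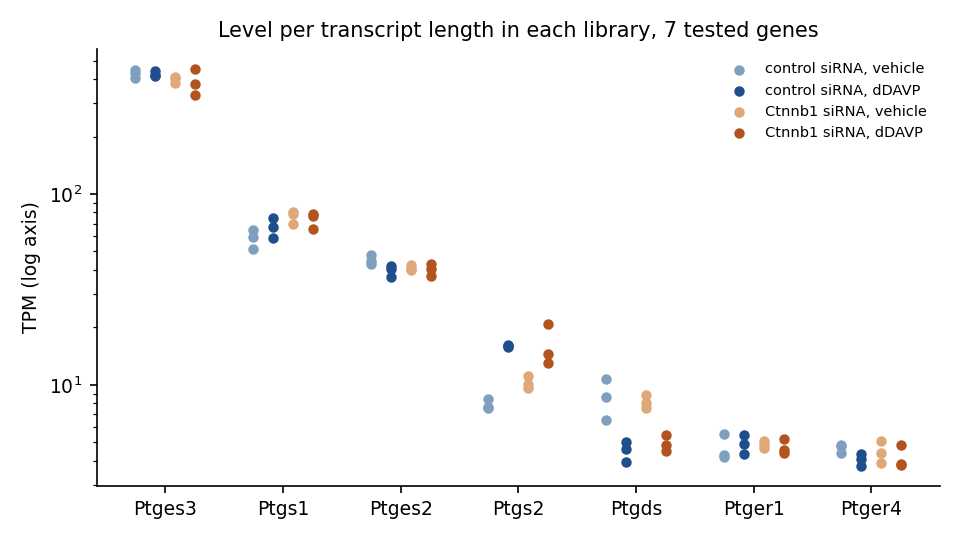
TPM (log axis) of the 7 tested genes in each of the 12 libraries, coloured by siRNA and treatment (3 libraries per group). Ptges3 lies highest at 331.63 to 451.54 TPM, and the vehicle libraries of Ptgs2 lie below and those of Ptgds above their own dDAVP libraries.

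The cyclooxygenase Ptgs2 (gene ID 19225, GRCm38 chromosome 1, 150100031 to 150108234, plus strand) catalyses the committed step of prostanoid synthesis and is the isoform that many stimuli induce. With control siRNA and vehicle it had 17.4, 16.2 and 17.5 CPM (mean 17.04, SD 0.768, n = 3), and with dDAVP 34.5, 37.4 and 35.8 CPM (mean 35.9, SD 1.42, n = 3). All 3 dDAVP libraries lay above all 3 vehicle libraries. Overlap between groups is given here and below as a description, because the share of all tested genes without such overlap was not counted. With Ctnnb1 siRNA it had 25.0, 23.1 and 22.2 CPM with vehicle (mean 23.5, SD 1.45, n = 3) and 34.9, 32.9 and 46.5 CPM with dDAVP (mean 38.1, SD 7.37, n = 3). Again the groups did not overlap, and the highest value of all came from replicate 3 of the dDAVP group, the library that stood apart.

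By edgeR's quasi-likelihood test with Benjamini-Hochberg adjustment over all tested genes, which is the source of every adjusted p below unless another tool is named, the dDAVP difference of Ptgs2 with control siRNA was log2 1.07 (SE 0.107, 95% interval 0.85 to 1.30, adjusted p = 1.84e-05). With Ctnnb1 siRNA it was log2 0.70 (SE 0.104, 95% interval 0.48 to 0.92, adjusted p = 0.00107). Without Ctnnb1-siRNA dDAVP replicate 3 that difference was log2 0.53 (SE 0.0706, adjusted p = 0.000394). Limma on log2 of TPM plus 1 gave an adjusted p of 0.0557 for it, above the threshold of 0.05, with log2 0.58. In these 2 comparisons Ptgs2 was the 1 gene of the 7 called higher, where 1.91% of all tested genes were called higher with control siRNA and 2.08% with Ctnnb1 siRNA. Averaged over both siRNAs the rise was 1.85-fold (log2 0.89, SE 0.0745, adjusted p = 1.44e-06), in a comparison where 4.33% of tested genes were called higher and 6.86% in either direction.

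Under vehicle, the Ptgs2 values of 22.2 to 25.0 CPM with Ctnnb1 siRNA did not overlap those of 16.2 to 17.5 CPM with control siRNA. This difference of log2 0.46 (SE 0.107, 95% interval 0.23 to 0.69) did not pass the test by edgeR (adjusted p = 0.0950). It passed in 3 of the 19 alternatives: without Ctnnb1-siRNA dDAVP replicate 2 (adjusted p = 0.0452), without replicate 3 of that group (adjusted p = 0.00203), and with DESeq2 (adjusted p = 0.00698), at log2 0.46 each time. In the others it did not pass, with edgeR adjusted p up to 0.388 without 1 library and 0.118 with the replicate block. Limma on log2 TPM gave an adjusted p of 0.319. Under dDAVP the siRNA groups overlapped, with log2 0.09 (SE 0.103, 95% interval -0.13 to 0.31, adjusted p = 0.789). The difference between the 2 dDAVP responses, Ctnnb1 siRNA minus control siRNA, was log2 -0.37 (SE 0.148, 95% interval -0.69 to -0.06, unadjusted p = 0.0241), and this interaction was not called (edgeR adjusted p = 0.918). Without Ctnnb1-siRNA dDAVP replicate 3 the interaction was log2 -0.54 (SE 0.0966, edgeR adjusted p = 0.208). Over all genes edgeR called 0 interactions (0%), with 829 genes at an unadjusted p under 0.05, and DESeq2 called 1.

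Ptgs1 (gene ID 19224, chromosome 2, 36216742 to 36258593, plus strand) encodes the constitutive cyclooxygenase. Its libraries held 137, 130 and 137 CPM with control siRNA and vehicle, and 136, 126 and 135 CPM with dDAVP. With Ctnnb1 siRNA they held 143, 150 and 143 CPM with vehicle, and 146, 152 and 150 CPM with dDAVP. The dDAVP groups overlapped the vehicle groups for each siRNA. Every Ctnnb1-siRNA library lay above every control-siRNA library, though how many of all tested genes separate in that way was not counted. For dDAVP the difference was log2 -0.02 with control siRNA (SE 0.0470, 95% interval -0.12 to 0.08) and log2 0.04 with Ctnnb1 siRNA (SE 0.0469, 95% interval -0.06 to 0.14). The siRNA difference was log2 0.11 with vehicle (adjusted p = 0.581) and log2 0.17 with dDAVP (adjusted p = 0.161), neither called by edgeR. Averaged over both treatments, Ptgs1 rose 1.10-fold with Ctnnb1 siRNA (log2 0.14, SE 0.0332, adjusted p = 0.0450, higher in 6 of 6 libraries), the 1 call among the 7 genes where 1.85% of all tested genes were called (0.939% higher and 0.909% lower). That call was lost in 14 of the 19 alternatives, at adjusted p of 0.0582 to 0.137, and among them are 11 of the 12 omissions of 1 library, all except that of Ctnnb1-siRNA dDAVP replicate 3. Its TPM per CPM ran from 0.375 to 0.550 over the libraries, a 1.47-fold range, where the other 6 tested genes had ranges of 1.20-fold to 1.26-fold. By group, the mean TPM per CPM of Ptgs1 was 0.436, 0.505, 0.525 and 0.492 (control siRNA with vehicle and dDAVP, then Ctnnb1 siRNA with vehicle and dDAVP), so its differences depend on which of the deposited units is used.

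**Figure D2:**
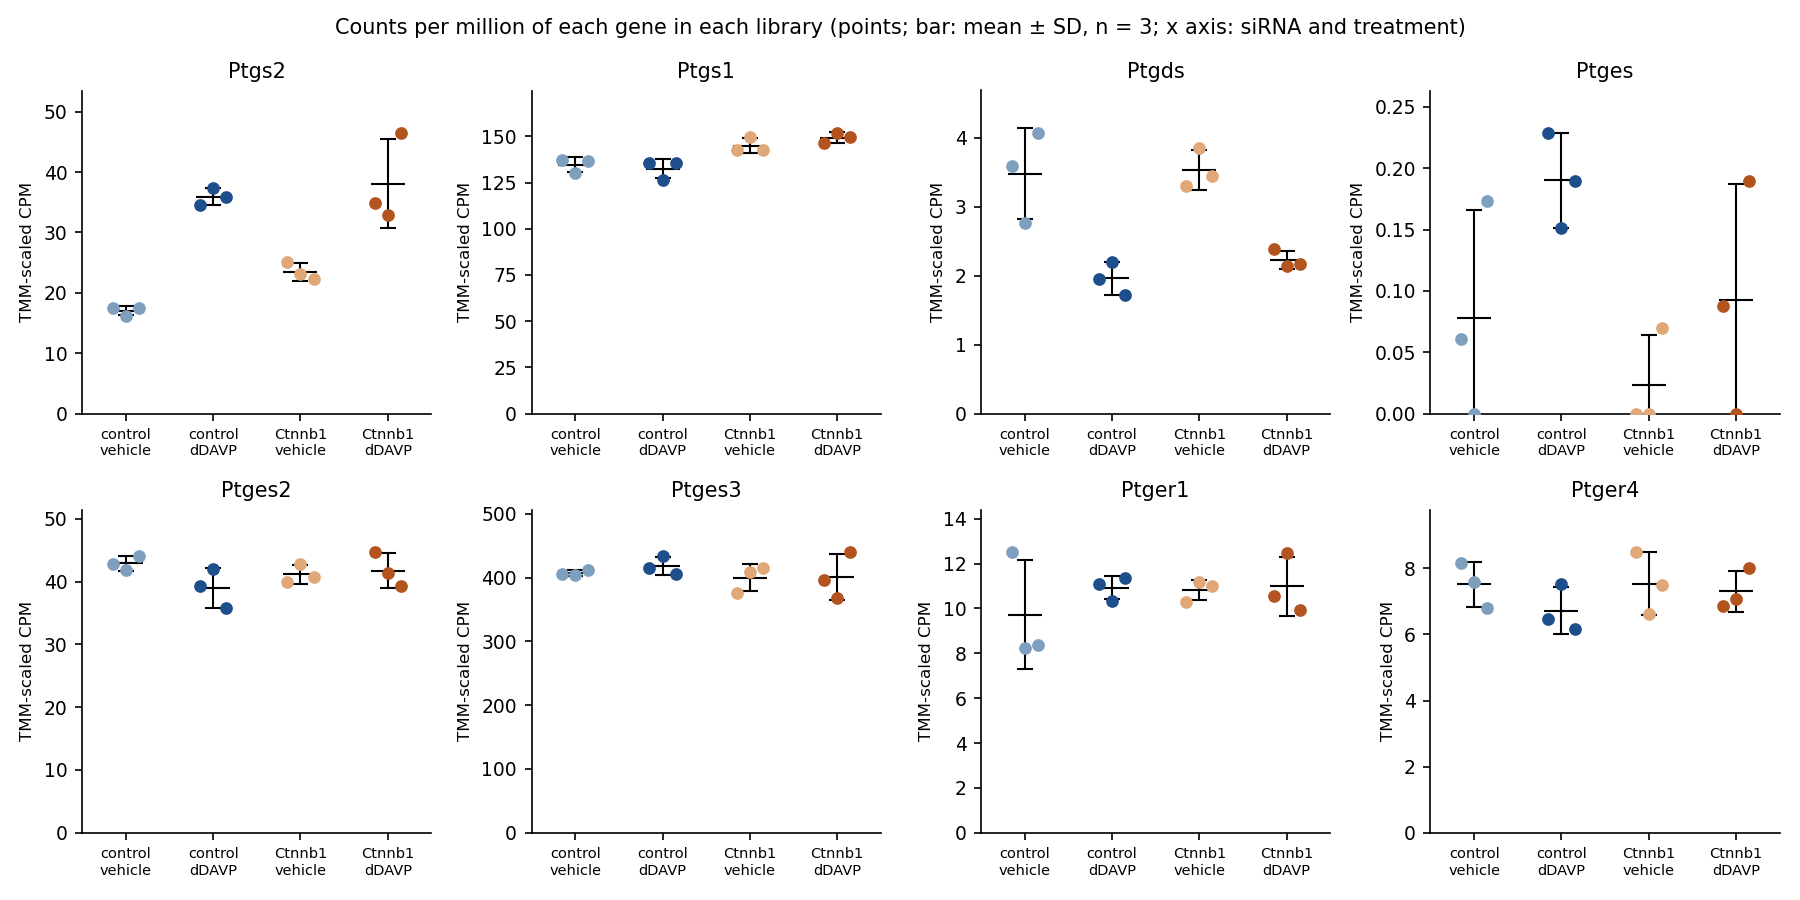
TMM-scaled CPM of the 8 genes with a row, by siRNA and treatment; points are libraries and bars are the mean ± SD of 3, with a separate vertical axis from 0 for each gene. Ptgs2 is higher and Ptgds lower in all dDAVP libraries than in the vehicle libraries of the same siRNA, and Ptges stays under 0.25 CPM.

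With Ptgs1 nearly level, the make-up of the cyclooxygenase reads moved with Ptgs2. Ptgs2 took 11.3%, 11.05% and 11.4% of the reads of both genes with control siRNA and vehicle, and 20.3%, 22.8% and 20.9% with dDAVP. With Ctnnb1 siRNA it took 14.9%, 13.4% and 13.5% with vehicle, and 19.3%, 17.8% and 23.7% with dDAVP. The shares are of reads, without correction for transcript length, and the dDAVP shares did not overlap the vehicle shares for either siRNA. The mean share went from 11.2% (SD 0.159, n = 3) to 21.3% (SD 1.31, n = 3) with control siRNA, and from 13.9% (SD 0.877, n = 3) to 20.3% (SD 3.10, n = 3) with Ctnnb1 siRNA. Two-sided exact permutation tests gave p = 0.1 for each, the smallest value that 3 against 3 libraries allow. The vehicle shares of the 2 siRNAs did not overlap either (exact permutation p = 0.1), and the dDAVP shares did (exact permutation p = 0.6).

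**Figure D3:**
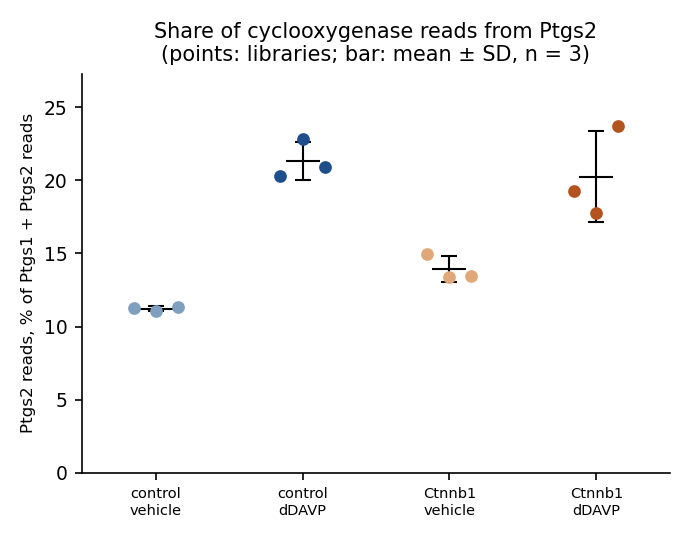
Ptgs2 reads as a percentage of Ptgs1 plus Ptgs2 reads, by siRNA and treatment; points are libraries and bars are the mean ± SD of 3. The share is 11.05% to 11.4% in control-siRNA vehicle libraries and 17.8% to 23.7% in the dDAVP libraries of both siRNAs.

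The 3 prostaglandin E synthases convert prostaglandin H2 into prostaglandin E2. Ptges, the microsomal synthase that is usually induced together with Ptgs2 (gene ID 64292, chromosome 2, 30889471 to 30931020, minus strand), was too low to measure. It had 3, 0 and 8 reads with control siRNA and vehicle, 9, 6 and 9 with dDAVP, 0, 0 and 3 with Ctnnb1 siRNA and vehicle, and 4, 0 and 9 with dDAVP. Its highest level was 0.229 CPM, and a count of 0 allows up to 3 reads, or 0.0676 to 0.0894 CPM in the 4 libraries at 0, by counting error only. Reads of its row failed the filter on low counts, so no fold change is given.

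Ptges2, a second membrane-associated synthase (gene ID 96979, chromosome 2, 32395890 to 32402740, plus strand), had 42.8, 41.8 and 44.1 CPM with control siRNA and vehicle and 39.3, 42.1 and 35.7 CPM with dDAVP. Under Ctnnb1 siRNA the values were 39.9, 42.8 and 40.8 CPM with vehicle and 44.7, 41.3 and 39.2 CPM with dDAVP. The groups overlapped in all 4 comparisons, and the dDAVP difference was log2 -0.14 with control siRNA (95% interval -0.28 to 0.01, adjusted p = 0.372) and log2 0.02 with Ctnnb1 siRNA (95% interval -0.12 to 0.17, adjusted p = 0.938). Ptges3 (gene ID 56351, chromosome 10, 128058982 to 128077254, plus strand) lay between 368 and 440 CPM in all libraries. Its dDAVP differences were log2 0.04 (95% interval -0.09 to 0.17) and log2 0.01 (95% interval -0.13 to 0.14), and those intervals leave out changes beyond 1.12-fold. A processed copy of the gene, Ptges3-ps, has its own row with 595 to 831 reads per library, 4.03% of the reads of both, so reads may be split between them.

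Ptgds (gene ID 19215, chromosome 2, 25466709 to 25470110, minus strand) encodes the enzyme that makes prostaglandin D2 and also carries lipophilic molecules outside cells. It had 3.59, 2.77 and 4.08 CPM with control siRNA and vehicle (mean 3.48, SD 0.660, n = 3) and 1.96, 2.20 and 1.73 CPM with dDAVP (mean 1.96, SD 0.236, n = 3). In the Ctnnb1-siRNA groups it had 3.31, 3.85 and 3.45 CPM with vehicle (mean 3.54, SD 0.284, n = 3) and 2.38, 2.15 and 2.17 CPM with dDAVP (mean 2.23, SD 0.130, n = 3). Every dDAVP library was below every vehicle library, also across siRNAs, on 77 to 109 reads per dDAVP library and 93 to 188 per vehicle library. With control siRNA the difference was log2 -0.84 (SE 0.166, 95% interval -1.19 to -0.48, adjusted p = 0.0101), and with Ctnnb1 siRNA log2 -0.66 (SE 0.163, 95% interval -1.01 to -0.32, adjusted p = 0.0393). It was the 1 gene of the 7 called lower in each comparison, where 0.915% and 0.697% of all tested genes were called lower. Without control-siRNA vehicle replicate 3 the first call was lost (adjusted p = 0.0796), and likewise without control-siRNA dDAVP replicate 3 (adjusted p = 0.0734). The second was lost in 10 of 19 alternatives, among them the omission of any 1 of the 6 Ctnnb1-siRNA libraries (adjusted p = 0.0617 to 0.190) or of control-siRNA vehicle replicate 1 (adjusted p = 0.0571), and the replicate block (adjusted p = 0.0700). Averaged over both siRNAs the fall was 1.68-fold (log2 -0.75, SE 0.116, adjusted p = 0.000654) and was called in all 19 alternatives, in a comparison where 2.54% of tested genes were called lower. For Ptgds the Ctnnb1 siRNA gave log2 0.02 with vehicle (95% interval -0.32 to 0.35) and log2 0.19 with dDAVP (95% interval -0.17 to 0.55), and the interaction was log2 0.17 (95% interval -0.32 to 0.67, edgeR adjusted p = 0.960).

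The EP receptors had the lowest levels per length of the tested genes by the mean of the 12 libraries, though Ptgds lay below Ptger1 in control-siRNA cells with dDAVP (means of 4.51 and 4.92 TPM). Ptger1 (EP1, which signals through calcium; gene ID 19216, chromosome 8, 83666644 to 83672756, plus strand) had 12.5, 8.26 and 8.37 CPM with control siRNA and vehicle and 11.1, 10.3 and 11.3 CPM with dDAVP. The Ctnnb1-siRNA libraries held 10.3, 11.2 and 10.98 CPM with vehicle and 10.6, 12.5 and 9.92 CPM with dDAVP. The groups overlapped in every comparison, and replicate 1 alone stood high among the control-siRNA vehicle libraries. The dDAVP differences were log2 0.16 (95% interval -0.13 to 0.46) and log2 0.02 (95% interval -0.27 to 0.32). Without control-siRNA vehicle replicate 1 the first was log2 0.39 (SE 0.111, adjusted p = 0.106, not called by edgeR). As for every gene here, reads from overlapping genes may not be told apart, because whether counting used the strand is not given in the sources used here.

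Ptger4 (EP4, which raises cyclic AMP; gene ID 19219, chromosome 15, 5233399 to 5244187, minus strand) had 8.16, 7.57 and 6.81 CPM with control siRNA and vehicle and 6.46, 7.53 and 6.17 CPM with dDAVP. After Ctnnb1 siRNA the levels were 8.50, 6.60 and 7.51 CPM with vehicle and 6.84, 7.06 and 8.002 CPM with dDAVP. The groups overlapped in all 4 comparisons. The dDAVP differences were log2 -0.16 (95% interval -0.42 to 0.10) and log2 -0.04 (95% interval -0.30 to 0.22), and the siRNA differences log2 0.00288 (95% interval -0.26 to 0.26) with vehicle and log2 0.12 (95% interval -0.14 to 0.38) with dDAVP. No test of Ptger1 or Ptger4 passed the threshold.

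**Figure D4:**
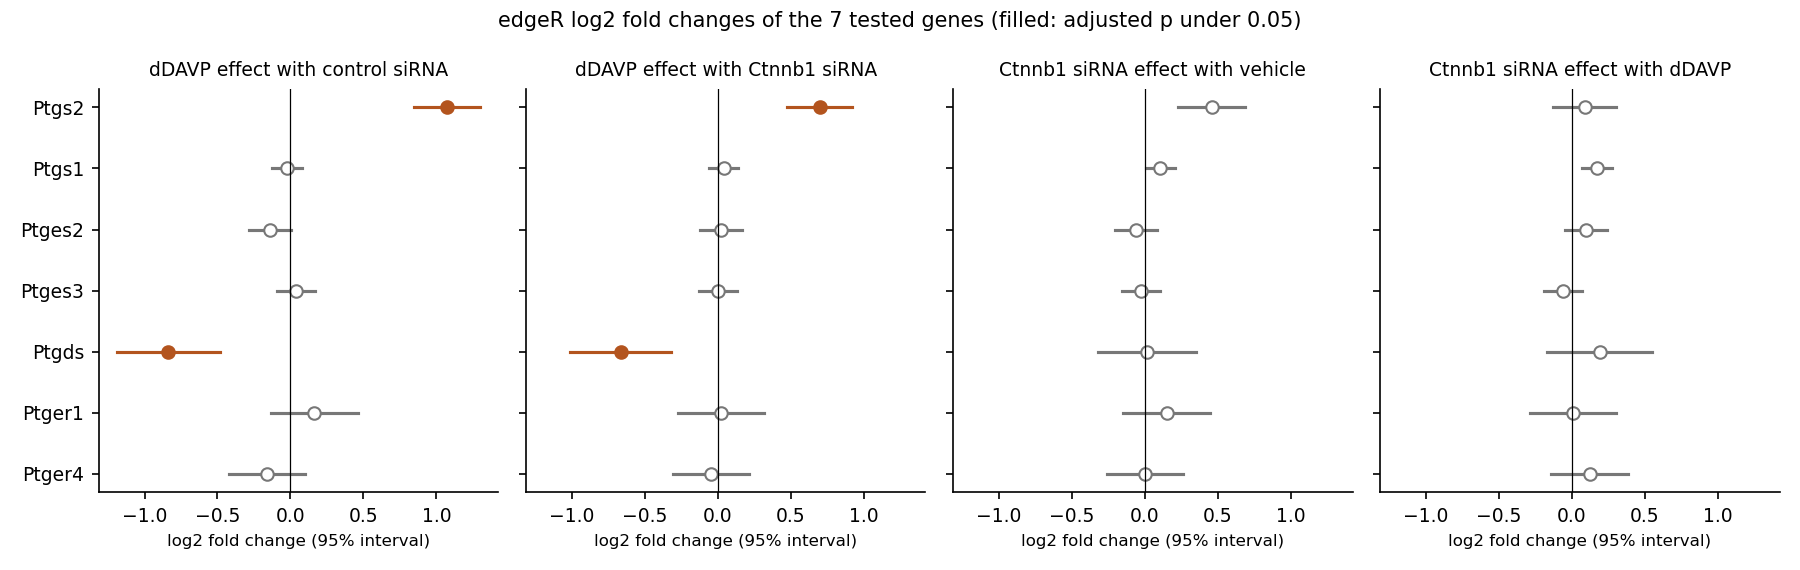
Log2 fold changes with 95% intervals of the 7 tested genes in the 4 comparisons between pairs of groups; filled points have an edgeR adjusted p under 0.05. The filled points are Ptgs2 at 1.07 and 0.70 and Ptgds at -0.84 and -0.66, all in the dDAVP comparisons.

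Counted over the 7 tested genes, dDAVP gave 2 calls (1 higher, 1 lower) with each siRNA, where 2.83% of all tested genes were called with control siRNA and 2.78% with Ctnnb1 siRNA. The Ctnnb1 siRNA gave 0 calls with edgeR under either treatment, where 0.43% (vehicle) and 0.267% (dDAVP) of all tested genes were called, with 0.206% and 0.121% of tested genes called higher and 0.224% and 0.145% lower. At an unadjusted p under 0.05 there were 2 of the 7 with vehicle and 1 with dDAVP, where 1336 and 1927 of the 16508 tested genes were. DESeq2 called Ptgs2 with vehicle and Ptgs1 with dDAVP (DESeq2 adjusted p = 0.0375). Over all genes it called 97 higher and 80 lower with vehicle, and 132 and 105 with dDAVP, more than edgeR did. The median log2 difference of the 7 genes was -0.02 and 0.02 for dDAVP with control and Ctnnb1 siRNA, against -0.00423 and -0.00490 over all tested genes. For the siRNA it was 0.02 with vehicle and 0.10 with dDAVP, against -0.00291 and 0.00111.

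Around these genes, 39 others of the pathway were listed, of which 27 had a row and 21 were tested. Those tested were 9 phospholipases A2, 5 further synthases and arachidonate enzymes, 5 genes of catabolism and transport, and Tbxa2r and Ptgfrn. dDAVP raised 2 of the 21 with control siRNA and 2 with Ctnnb1 siRNA and lowered 0, where 1.91% and 2.08% of all tested genes were called higher. The Ctnnb1 siRNA raised 1 with each treatment and lowered 0, where 0.206% and 0.121% were called higher. Of the 2 genes raised with control siRNA, Pla2g4f passed the filter on low counts only through its dDAVP libraries. It therefore adds no support to that count, which leaves Slco2a1 alone. Slco2a1 (chromosome 9, 103007061 to 103096002), the transporter that takes prostaglandins into cells, had 2.16, 2.12 and 1.69 CPM with control siRNA and vehicle and 7.89, 5.69 and 5.66 CPM with dDAVP. Under Ctnnb1 siRNA it had 1.84, 2.55 and 2.31 CPM with vehicle and 5.07, 4.50 and 7.14 CPM with dDAVP. All dDAVP libraries lay above all vehicle libraries. The rise was 3.22-fold (log2 1.69, SE 0.202, adjusted p = 0.000137) and 2.50-fold (log2 1.32, SE 0.200, adjusted p = 0.00120), and both calls were made in all 19 alternatives. Ptgr1 and Ptgr2, which reduce prostaglandin metabolites, passed no test in the 4 comparisons between pairs of groups.

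Pla2g4a, the cytosolic phospholipase A2 that frees arachidonic acid (chromosome 1, 149829618 to 149961290), had 69.3, 67.6 and 68.3 CPM with control siRNA and vehicle and 76.6, 80.9 and 82.0 CPM with dDAVP. In Ctnnb1-siRNA cells the levels were 69.9, 72.9 and 75.9 CPM with vehicle and 81.1, 89.4 and 99.1 CPM with dDAVP. For each siRNA the dDAVP libraries lay above the vehicle libraries. The rise with Ctnnb1 siRNA was 1.23-fold (log2 0.30, adjusted p = 0.0165), and it was lost without Ctnnb1-siRNA vehicle replicate 1 (adjusted p = 0.100) or replicate 2 (adjusted p = 0.0812) and with limma on log2 TPM (adjusted p = 0.250). With control siRNA the difference was log2 0.22 and not called by edgeR (adjusted p = 0.0860). It was called with DESeq2 (adjusted p = 0.0280) and without Ctnnb1-siRNA dDAVP replicate 1 (adjusted p = 0.0438) or replicate 3 (adjusted p = 0.0141).

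Pla2g4f, another cytosolic phospholipase A2, had 0 reads in all 6 vehicle libraries, so it entered the test only through the libraries where it was higher, and its p-values support nothing beyond the counts. It had 9, 9 and 6 reads in the dDAVP libraries with control siRNA and 4, 4 and 14 with Ctnnb1 siRNA. Against a floor of 3 reads over the 3 vehicle libraries, its pooled level was 8.15-fold higher with control siRNA and 6.86-fold with Ctnnb1 siRNA. Those ratios leave out counting error and spread in the dDAVP libraries. The edgeR adjusted p was 0.0496 with control siRNA and 0.0677 with Ctnnb1 siRNA (not called). The first call was lost in 14 of the 16 alternatives that gave a value for it and was made in 2, none of them an omission of 1 library. The second was made in 1 of 17 such alternatives, by DESeq2 (adjusted p = 0.0228). Pla2g7, the secreted platelet-activating factor acetylhydrolase (chromosome 17, 43567994 to 43612202), was the gene raised by the Ctnnb1 siRNA. It had 96.4, 96.9 and 97.3 CPM with control siRNA and vehicle, and 119, 125 and 135 CPM with Ctnnb1 siRNA and vehicle. With dDAVP it had 90.0, 94.1 and 96.0 CPM, and 115, 129 and 124 CPM. The siRNA groups did not overlap, and the rise was 1.30-fold with vehicle (log2 0.38, adjusted p = 0.00508) and 1.32-fold with dDAVP (log2 0.40, adjusted p = 0.00805). The call with dDAVP was lost without control-siRNA dDAVP replicate 1 (adjusted p = 0.0670).

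**Figure D5:**
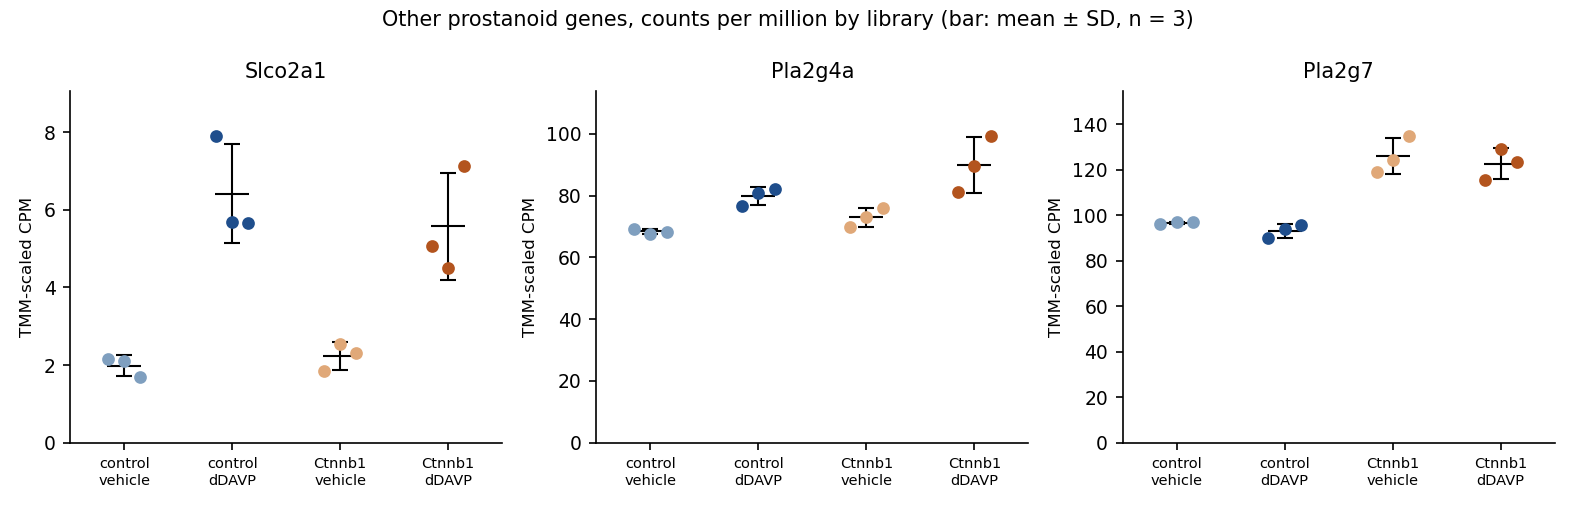
TMM-scaled CPM of Slco2a1, Pla2g4a and Pla2g7 by siRNA and treatment; points are libraries and bars are the mean ± SD of 3. Slco2a1 is at 1.69 to 2.55 CPM with vehicle and 4.50 to 7.89 CPM with dDAVP, and Pla2g7 is higher with the Ctnnb1 siRNA under both treatments.

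Other prostanoid receptors were low. Tbxa2r, the thromboxane receptor, had 7 to 23 reads per library and mean levels of 0.213 to 0.340 TPM by group, and passed no test. Ptgfr, the receptor of prostaglandin F2alpha, had 0 to 8 reads per library, and Ptgdr2, a receptor of prostaglandin D2, had 0 to 11, and neither was tested. Ptgfrn, a membrane protein named as a negative regulator of Ptgfr, was higher, at 50.6 to 56.1 TPM by group, and passed no test. Ptger2, Ptger3, Ptgir and Ptgdr had no row in the table used here and were not analysed.

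The genes most like Ptgs2 and Ptgds over the 12 libraries were taken by Pearson correlation of log2 CPM among 11140 genes with a mean of at least 1 CPM, as a description, since all points share the 4 groups. Being chosen for likeness to genes that dDAVP moved, they largely had to differ with dDAVP, so their calls add no support. For Ptgs2 these were Atp1b1, the beta subunit of the sodium pump (r = 0.977), the thioredoxin reductase Txnrd1 (r = 0.971) and the chemokine Cxcl5 (r = 0.969). With dDAVP they had log2 differences of 0.76, 0.34 and 1.52 with control siRNA and 0.60, 0.29 and 0.95 with Ctnnb1 siRNA, all called by edgeR. For Ptgds they were Vwa1, an extracellular matrix protein (r = 0.945), the small GTPase Rasl11a (r = 0.943) and Sh3tc2 (r = 0.933). With dDAVP these had log2 differences of -0.53, -1.26 and -0.35 with control siRNA and -0.31, -1.21 and -0.37 with Ctnnb1 siRNA, all called by edgeR except that of Vwa1 with Ctnnb1 siRNA (adjusted p = 0.157).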

How the data were processed

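Per the submitters' processing notes, FastQC, Trimmomatic, HISAT2, StringTie and DESeq2 were used with GRCm38 (mm10); versions, and whether counting used the strand, are not given in the sources used here. The authors deposited 1 table with read counts and TPM values for each library, per the file headers. The count columns are whole numbers and were used as deposited. The TPM values, which the authors scaled by length and to a fixed sum, were used for levels between genes and for 1 alternative.

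Counts were fitted in R 4.3.3 with edgeR 4.0.16 over all 12 libraries (filterByExpr on group, TMM scaling, robust quasi-likelihood, 1 coefficient per group). The 16508 genes kept hold 99.97% of reads, and the biological coefficient of variation was 8.26%. Benjamini-Hochberg adjustment ran over all of them, with calls at an adjusted p under 0.05. Contrasts were dDAVP with each siRNA, siRNA with each treatment, their averages and the interaction. The SE of a log2 difference is its size divided by the square root of F.

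The genes, the pathway list and the marker lists (principal, intercalated, epithelial, fibroblast, leukocyte, endothelial) were chosen with earlier results of these data known. All 9 genes, called pathway genes (up to 4 per comparison between pairs of groups), every other prostanoid receptor and the 3 genes most like each called gene were named; Ptgr1 and Ptgr2 were added after their values were seen. Intercalated-cell markers, 3 of 8 with a row and 2 tested, summed to 54.16 to 65.43 TPM. Of these, Slc4a1 had 0 reads in every group except Ctnnb1 siRNA with vehicle. Results were recomputed with DESeq2 1.42.0, with edgeR scaled by DESeq2's size factors or by upper quartiles, without a filter, with a filter at 1 CPM in 3 libraries, with limma 3.58.1 on log2 of TPM plus 1, with a replicate block and without each library in turn. Coordinates are from RefSeq on GRCm38. Floors (3 counts) cover counting error only. The 95% intervals use the SE of the edgeR fit and so also include the spread among libraries. An annotation check that involves a further gene is not reported here.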

Additional observations from a re-analysis of the deposited data

How the results depend on the processing

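Over 19 alternatives, Ptgs2 was called higher with dDAVP and control siRNA in 19 and with Ctnnb1 siRNA in 18, and Ptgds lower in 17 and 9. Without 1 library, the number of the 7 genes called lower by dDAVP was 0 to 1 for each siRNA. With Ctnnb1 siRNA that number was 0 without the filter, with the replicate block and on log2 TPM, and the number called higher was 0 on log2 TPM. For the Ctnnb1 siRNA with vehicle, 0 to 1 were called higher without 1 library and 1 with DESeq2, which also called 1 with dDAVP. For the average siRNA difference, 0 to 2 were called higher without 1 library, 2 with DESeq2 (Ptgs1 and Ptgs2), and 0 without the filter, with the replicate block and on log2 TPM. Same-numbered libraries of different groups did not deviate together (18 pairs, r of -0.15 to 0.19, median -0.018). Pairs of different numbers ran from -0.28 to 0.34. With 3 libraries per group, this cannot settle whether a number marks a shared culture or day, which the labels do not give. The replicate block ended the Ptgds call with Ctnnb1 siRNA and the average Ptgs1 call, and no other call among the 7 genes.

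Of the 49 results of the 7 genes over the comparisons, 18, all not called, changed sign in some alternative, with 37 values, 0 of them called. On log2 TPM, Ptgs1 gave 0.19 and -0.053 for dDAVP with control and Ctnnb1 siRNA, and -0.24 for the interaction. Ptges3 gave -0.014 and -0.055 for the same responses and, for average dDAVP, -0.034. With Ctnnb1 siRNA, dDAVP gave -0.036 for Ptges2 and -0.043 for Ptger1, and upper-quartile scaling gave -0.0037 for Ptges3. For the siRNA with vehicle, log2 TPM gave -0.051 for Ptgds and -0.064 for Ptger4, and with dDAVP -0.012 for Ptgs2 and -0.052 for Ptger1. On average the siRNA gave -0.061 for Ptges2 and -0.017 for Ptger4 on log2 TPM. Without 1 library, dDAVP with control siRNA gave -0.042 to 0.0078 for Ptgs1. With Ctnnb1 siRNA, dDAVP gave -0.030 to 0.065 for Ptges2, -0.066 to 0.063 for Ptges3, -0.081 to 0.090 for Ptger1 and -0.13 to 0.050 for Ptger4. The siRNA with vehicle gave -0.052 to 0.021 for Ptges3, -0.11 to 0.15 for Ptgds and -0.088 to 0.090 for Ptger4. With dDAVP it gave -0.082 to 0.18 for Ptgs2 and -0.098 to 0.075 for Ptger1. The interaction of Ptges3 ran from -0.10 to 0.019. Average dDAVP gave -0.00088 to 0.025 for Ptgs1 and -0.014 to 0.053 for Ptges3, and the average siRNA -0.013 to 0.047 for Ptges2. The cause was not tested.

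Counts over all genes also moved. Without 1 library, dDAVP with control siRNA raised 179 to 513 genes (316 with all libraries) and lowered 60 to 326 (151), and DESeq2 gave 502 and 255. With Ctnnb1 siRNA it raised 181 to 357 (344) and lowered 31 to 148 (115), and DESeq2 gave 523 and 205, log2 TPM 133 and 77. The siRNA with vehicle raised 6 to 98 (34) and lowered 11 to 83 (37), and with dDAVP raised 0 to 104 (20) and lowered 5 to 112 (24). DESeq2 gave 97 and 80, then 132 and 105. Log2 TPM gave 170 raised and 231 lowered by dDAVP with control siRNA, 15 and 44 by the siRNA with vehicle, and 4 and 17 with dDAVP. Averaged, dDAVP raised 714 and lowered 419, and log2 TPM gave 352 and 703. The average siRNA difference raised 155 (87 to 335 without 1 library) and lowered 150 (84 to 271), DESeq2 gave 291 and 274, and log2 TPM 45 and 224. Depth limits Ptges, Ptgfr and Ptgdr2, which were not tested.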

Other observations

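Averaged over both siRNAs, dDAVP also raised Acsl4, which activates arachidonic acid for storage in membrane lipids (log2 0.36, SE 0.0727, edgeR adjusted p = 0.00668), and Abcc4, an exporter of prostaglandins and cyclic nucleotides (log2 0.17, SE 0.0390, edgeR adjusted p = 0.0159). Neither was called with a single siRNA: Acsl4 had log2 0.40 and 0.32, and Abcc4 log2 0.13 and 0.20, with control and Ctnnb1 siRNA. For average dDAVP, 5 of the 21 pathway genes were called higher, where 4.33% of all tested genes were. Pla2g4f is among the 5 but entered the test only through its dDAVP libraries, so it adds no support to that count. Averaged over both treatments, the Ctnnb1 siRNA lowered Slco3a1, an organic anion transporter that carries prostaglandins (log2 -0.54, SE 0.103, edgeR adjusted p = 0.0109), which had log2 -0.51 with vehicle and -0.58 with dDAVP and was called in neither. For the average siRNA difference, 1 of the 21 was called higher and 1 lower, where 0.939% and 0.909% of all tested genes were. With limma on log2 TPM the calls of Acsl4 (adjusted p = 0.109) and Abcc4 (adjusted p = 0.379) were lost. The call of Abcc4 was also lost without Ctnnb1-siRNA vehicle replicate 2 (edgeR adjusted p = 0.0549), while Slco3a1 was called in all 19 alternatives.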
